A study of Mus musculus with 4 samples.

Results

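The liver X receptors (LXRs), their retinoid X receptor (RXR) partners and a set of LXR-controlled genes of cholesterol efflux were examined in peritoneal macrophages. The cells came from mice with a myeloid knockout of Dnmt1, the maintenance DNA methyltransferase, and from controls. The 10 genes were taken by symbol from the 13834 genes of the count table. They are the LXR genes Nr1h2 and Nr1h3, the RXR genes Rxra and Rxrb, and Abca1, Abcg1, Apoe, Mylip, Arl4c and Lpcat3. All 10 were found once in the table, all 10 passed the filter on low counts together with 12542 genes in all, and the lowest value of any of them was 526 counts. Dnmt1 fl/fl stands here for mice with floxed Dnmt1 and Dnmt1 KO for mice with floxed Dnmt1 and a Cre transgene.

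The RNA came from mouse peritoneal macrophages, with 2 samples of each genotype. Both genotypes carry the floxed Dnmt1 allele, the labels call the controls wt, and the Dnmt1 KO mice also express Cre recombinase from the LysM promoter, which is active in neutrophils and monocytes as well as in macrophages. The study's general protocol for these cells used mice of 10 weeks that received thioglycolate broth 3 days before the lavage, so the cells are elicited macrophages rather than an undisturbed resident population. Nothing says whether a sample is 1 mouse or a pool, and the p-values measure only the spread between these samples.

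LXRs are nuclear receptors that are switched on by oxysterols, the oxidised forms of cholesterol, and they bind DNA as heterodimers with an RXR at paired AGGTCA-like elements spaced by 4 bases (DR4 elements). In macrophages loaded with cholesterol the activated receptors raise the transcription of the sterol transporters, of the apolipoprotein that accepts the exported lipid, and of enzymes that remodel membrane phospholipids. Without ligand the same heterodimer recruits corepressors to these genes. The study asked how the loss of Dnmt1 affects macrophage cholesterol handling, with Abca1 as one of its genes of interest, and the comparison of genotypes addresses that question at the level of RNA.

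Promoter sequences were planned for those of the 10 genes whose Dnmt1 KO samples all lay on 1 side of the controls. Of these genes Rxra is not shown, and Abcg1 had no promoter sequence in the source. The stretches shown lie before the start of Abca1 and Lpcat3, both LXR targets. The promoter methylation of Abca1 was a subject of the study. Both sequences are from the RefSeq promoter table on GRCm38.p6, written 5′ to 3′ in the direction of the gene, with CG dinucleotides, the sites that Dnmt1 can keep methylated, in capitals. The Abca1 stretch is chr4:53159896-53160145 on the minus strand, 250 bases with 20 CG dinucleotides. The Lpcat3 stretch is chr6:124662854-124663026 on the plus strand, 173 bases with 20 CG dinucleotides, and it stops before the outermost start of the gene in GENCODE M21.
Abca1: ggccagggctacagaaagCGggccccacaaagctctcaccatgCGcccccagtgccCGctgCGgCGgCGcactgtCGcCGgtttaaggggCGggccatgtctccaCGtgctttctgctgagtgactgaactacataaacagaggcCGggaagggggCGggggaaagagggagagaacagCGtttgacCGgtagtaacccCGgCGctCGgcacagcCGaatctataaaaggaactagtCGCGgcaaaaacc
Lpcat3: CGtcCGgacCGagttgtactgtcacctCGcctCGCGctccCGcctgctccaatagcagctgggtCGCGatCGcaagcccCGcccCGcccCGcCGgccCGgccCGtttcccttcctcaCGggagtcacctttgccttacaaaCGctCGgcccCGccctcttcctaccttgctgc

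A promoter was found for 9 of the 10 genes, in 14 windows, and none for Abcg1. The windows of 250 bases before the start held a median of 6 CG dinucleotides over all 32851 promoters. Abca1 had 20, more than 82.1% of all promoters, Lpcat3 had 29 in its full window, Mylip 23, Arl4c 35, and Rxrb 31 and 39 in its 2 windows. Apoe, with 8 to 10 in 3 windows, and Nr1h3, with 7 and 8 in 2 windows, were close to the middle of all promoters. Rxra had 40 in 1 window and 1 in the other, and Nr1h2 had 13. The Rxra window with 1 CG dinucleotide lies 32852 bases from the outermost start of the gene in GENCODE M21. The 2 Nr1h3 windows lie 7718 and 7799 bases from the outermost start of that gene. Without that Rxra window, the windows held 7 to 40, from close to the middle to very rich in the dinucleotide that Dnmt1 methylates.

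A DR4 element was searched on both strands as 2 copies of AGGTCA with 4 bases of any kind between them and, with looser elements, as 2 copies of GGTNA with 5 bases between them. The strict form was in none of the 14 windows and in 0.0152% of all promoters. The loose form was in 0.621% of all promoters and, among these genes, in Abca1 alone, where it read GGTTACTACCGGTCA on the strand opposite to the gene, 67 to 53 bases before the start. A single AGGTCA, a part of the strict form, was in 14.0% of all promoters. Among these genes it was in 1 window of Rxra, the one with 1 CG dinucleotide, which held it 2 times. These are matches of letters within 250 bases and no measure of binding.

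Library totals ran from 20228071 to 24198943 counts. Levels are given as CPM, counts scaled to the effective size of the library. The floor of detection, set at 3 counts, lay at 0.124 to 0.148 CPM when taken over the library totals. The floor covers counting error only. Dnmt1, on chromosome 9, was at 86.6 and 67.0 CPM in Dnmt1 fl/fl and at 37.0 and 42.7 CPM in Dnmt1 KO replicates 1 and 2. The log2 fold change was -0.95 (95% interval -1.54 to -0.35, edgeR adjusted p = 1.00), with no overlap. Dnmt1 RNA in Dnmt1 KO was thus reduced, to 0.519 of the control level, and not absent. Of 8 macrophage markers all were detected, and Lyz2, the gene of the LysM promoter that drives Cre, was at 29531 and 28588 CPM in Dnmt1 fl/fl and at 11351 and 15745 CPM in Dnmt1 KO. It was singled out after its values were seen, and the 8 markers had a median log2 fold change of -0.04, with 2 at or beyond 0.2 upward, 5 between and Lyz2 alone downward. Dnmt1 KO replicate 1 stood apart from the other libraries. The summed level of 7 tested neutrophil markers was 878 CPM there and 215 to 319 CPM in the others, that of 6 B cell markers 130 against 318 to 525 CPM, and that of 5 markers of resident large peritoneal macrophages 541 against 743 to 1012 CPM. Most of the resident macrophage sum was Cd93, at 437 to 823 CPM. Of the 5 resident markers 2, Timd4 and Icam2, were below both controls in both Dnmt1 KO samples, and 3 overlapped. Over all genes 8.56% were below both controls, and the 5 markers had a median log2 fold change of -0.43. Among the defining neutrophil genes Ly6g was below the filter and Camp and Ngp were not listed. In bulk RNA, fewer cells of a type and less RNA per cell cannot be told apart, and the part of these differences in the results below was not tested.

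Across the whole table, the quasi-likelihood test of edgeR gave 0 of 12542 genes (0%) with an adjusted p under 0.05 and 35 (0.279%) with an unadjusted p under 0.05, and DESeq2 called 1 gene. A log2 fold change of at least 0.2, the limit the study used, was reached upward by 21.8% and downward by 19.7% of genes, so that 47.6% of them were lower in Dnmt1 KO, against 66.4% when libraries were scaled by their totals alone. Both Dnmt1 KO samples were above both controls in 8.14% of genes and below them in 8.56%. Of the 10 LXR pathway genes, 0 had an adjusted or an unadjusted p under 0.05. Abca1 and Abcg1 were at or beyond 0.2 upward and none downward, a share of 2 in 10 that is near the background of 21.8%. Abca1, Abcg1, Lpcat3 and Rxra lay above both controls in both Dnmt1 KO samples, 4 of 10 genes against 8.14% of all genes, and none lay below. The log2 fold change was positive for 7 of the 10 genes, against 50.9% of all genes, and its median was 0.09 over the 10 genes and 0.0046 over all genes tested. With scaling by library totals 6 of the 10 were positive, against 39.3% of all genes, 1 (Arl4c) was beyond 0.2 downward, and the medians were 0.01 and -0.06. Without Dnmt1 fl/fl replicate 2 the median of the 10 genes was 0.19, against 0.01 over all genes in that fit. Without Dnmt1 KO replicate 1 it was 0.10, and Abca1 and Abcg1 were below the limit of 0.2, at 0.13 and 0.19. In that fit Nr1h2 and Rxrb were at 0.22 and 0.25, and Nr1h3 and Arl4c at -0.27 and -0.47.

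Both LXR genes were expressed in all samples, and the Dnmt1 KO libraries lay on opposite sides of the controls, in opposite order for the 2 genes. Nr1h2 encodes LXRβ, the widely expressed form, and lies on chromosome 7 from 44549616 to 44553951 on GRCm38. It was at 89.7 and 82.7 CPM in the Dnmt1 fl/fl samples and at 65.6 and 100.4 CPM in Dnmt1 KO replicates 1 and 2. The Dnmt1 KO samples were thus the lowest and the highest of the 4, on either side of the controls. The log2 fold change was -0.05 (95% interval -0.74 to 0.64).

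Nr1h3 encodes LXRα, the form that is prominent in macrophages and liver, and lies on chromosome 2 from 91184061 to 91202834. It was at 71.6 and 67.9 CPM in the controls and at 90.6 and 58.0 CPM in Dnmt1 KO replicates 1 and 2, a log2 fold change of 0.09 (95% interval -0.60 to 0.79). Here replicate 1 was the highest and replicate 2 the lowest of the 4, the mirror image of Nr1h2. On the log2 scale, the gap between the Dnmt1 KO samples was 0.61 for Nr1h2 and 0.64 for Nr1h3, and that between the control samples 0.12 and 0.08.

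Per kilobase of the longest transcript, Nr1h2 made up 55.5% and 54.8% of the summed LXR level in the controls, 41.8% in Dnmt1 KO replicate 1 and 63.2% in Dnmt1 KO replicate 2. The mean share of the controls was 55.1% ± 0.492 (SD, n = 2) and that of the Dnmt1 KO samples 52.5% ± 15.1 (SD, n = 2). The difference of -2.59 percentage points was smaller than the spread in Dnmt1 KO (exact permutation test, two-sided, p = 1.00, where the smallest p that 2 against 2 samples allow is 0.33). Leaving out Dnmt1 KO replicate 1, the difference was 8.11 percentage points, and without replicate 2 it was -13.3. Per median in place of longest transcript length the shares were 75.6% and 75.1% in the controls and 64.2% and 81.1% in Dnmt1 KO, so the level of the share depends on the length taken, and the difference was -2.75 percentage points. The library with the low Nr1h2 share is the one with the high neutrophil and low B cell and resident macrophage markers.

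**Figure D1:**
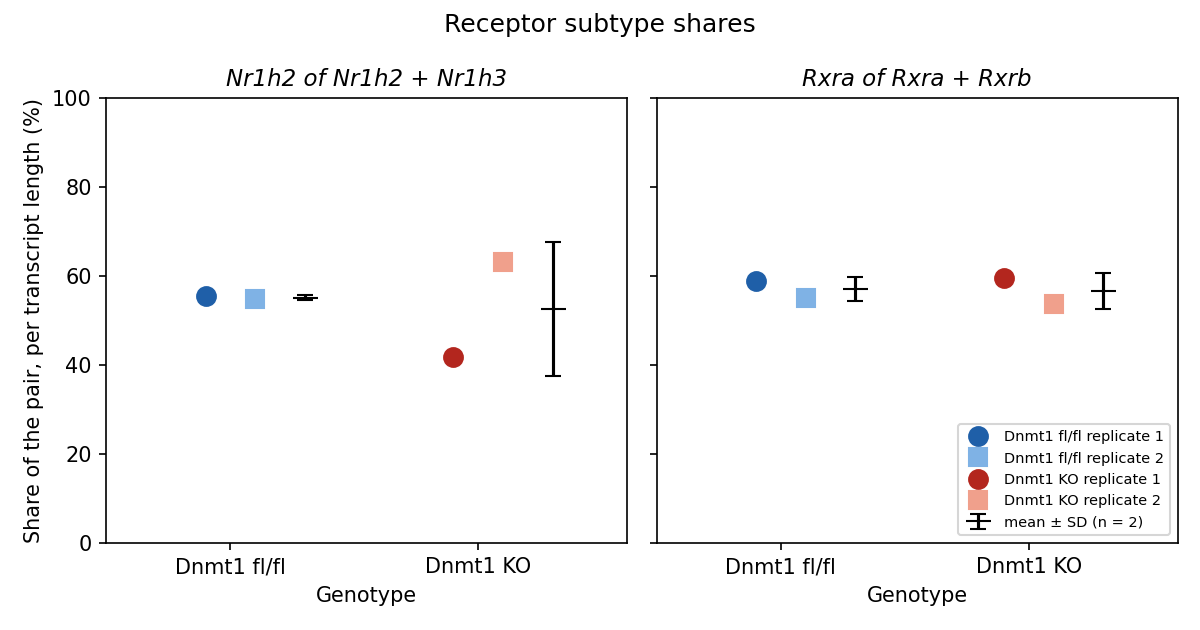
Share of Nr1h2 in the summed level of Nr1h2 and Nr1h3 (left) and of Rxra in that of Rxra and Rxrb (right), in percent, per transcript length; each point is 1 library and the bars give mean ± SD (n = 2). The Dnmt1 KO libraries lie at 41.8% and 63.2% for Nr1h2, on both sides of the controls at 54.8% and 55.5%, while the RXR shares lie between 53.6% and 59.5%.

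The RXR genes varied less. Rxra encodes RXRα, the main heterodimer partner in myeloid cells, and lies on chromosome 2 from 27676440 to 27762957. It was at 131.9 and 126.4 CPM in the controls and at 132.2 and 134.9 CPM in Dnmt1 KO, which made it the steadiest of the 10 genes, with 1.07-fold between the highest and lowest sample. Its Dnmt1 KO samples were above both controls, but the nearest samples of the genotypes differed only as 132.2 from 131.9 CPM. The log2 fold change of 0.05 (95% interval -0.47 to 0.57) turned to -0.02 with scaling by library totals, and the genotypes overlapped under that scaling and with a filter of at least 10 counts in every sample.

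Rxrb encodes RXRβ and lies on chromosome 17 from 34031812 to 34038399. Its levels were 49.4 and 55.3 CPM in the controls and 48.3 and 62.4 CPM in Dnmt1 KO replicates 1 and 2, a log2 fold change of 0.08 (95% interval -0.50 to 0.66). The Dnmt1 KO samples again enclosed the controls. The share of Rxra in the pair, per length, was 58.8% and 55.0% in Dnmt1 fl/fl and 59.5% and 53.6% in Dnmt1 KO, a difference of -0.383 percentage points (exact permutation test, two-sided, p = 1.00).

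The sterol transporters carried the largest differences among the 10 genes, and neither passed the test. Abca1 encodes the transporter that hands cholesterol to lipid-poor apolipoprotein A-I, and lies on chromosome 4 from 53030787 to 53159895. It was at 331 and 361 CPM in the controls and at 488 and 379 CPM in Dnmt1 KO replicates 1 and 2, a fold change of 1.25 with a 95% interval of 0.822 to 1.91 (edgeR, unadjusted p = 0.234, adjusted p = 1.00). Both Dnmt1 KO samples were above both controls, and most of the mean difference came from replicate 1, without which the log2 fold change went from 0.33 to 0.13. Removing the trend of each library with transcript length gave 282 and 373 CPM in the controls and 669 and 315 CPM in Dnmt1 KO, so that the genotypes overlapped while the log2 fold change was 0.59.

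Abcg1 encodes the transporter that passes cholesterol on to mature high-density lipoprotein (HDL) particles, and lies on chromosome 17 from 31057675 to 31117988. It was at 256 and 240 CPM in the controls and at 384 and 283 CPM in Dnmt1 KO replicates 1 and 2. The fold change was 1.35 (95% interval 0.871 to 2.08), a log2 fold change of 0.43 with a standard error of 0.25 (edgeR, unadjusted p = 0.144, adjusted p = 1.00), higher than that of 94.0% of all genes tested. The order of the genotypes held with the length correction, at 234 and 240 CPM against 460 and 258 CPM, where the log2 fold change was 0.60. A fit that left out Dnmt1 KO replicate 1 gave a log2 fold change of 0.19. As with Abca1, the highest value was in the library with the highest neutrophil markers.

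Abca1 and Abcg1 kept a steady proportion. Per transcript length, Abca1 made up 42.4% and 46.1% of their sum in Dnmt1 fl/fl and 42.0% and 43.2% in Dnmt1 KO, a difference of -1.63 percentage points (exact permutation test, two-sided, p = 0.667), which is a comparison added after the values were seen. Per median transcript length the share was 20.3% and 22.8% in the controls and differed by -1.12 percentage points in Dnmt1 KO. By the distance between centred log2 CPM values over the 4 samples, the genes with a pattern nearest to that of Abca1 were Sergef (distance 0.0159), Ntpcr (0.0224) and Map1lc3a (0.0377), and with 4 samples many genes lie close to any pattern.

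**Figure D2:**
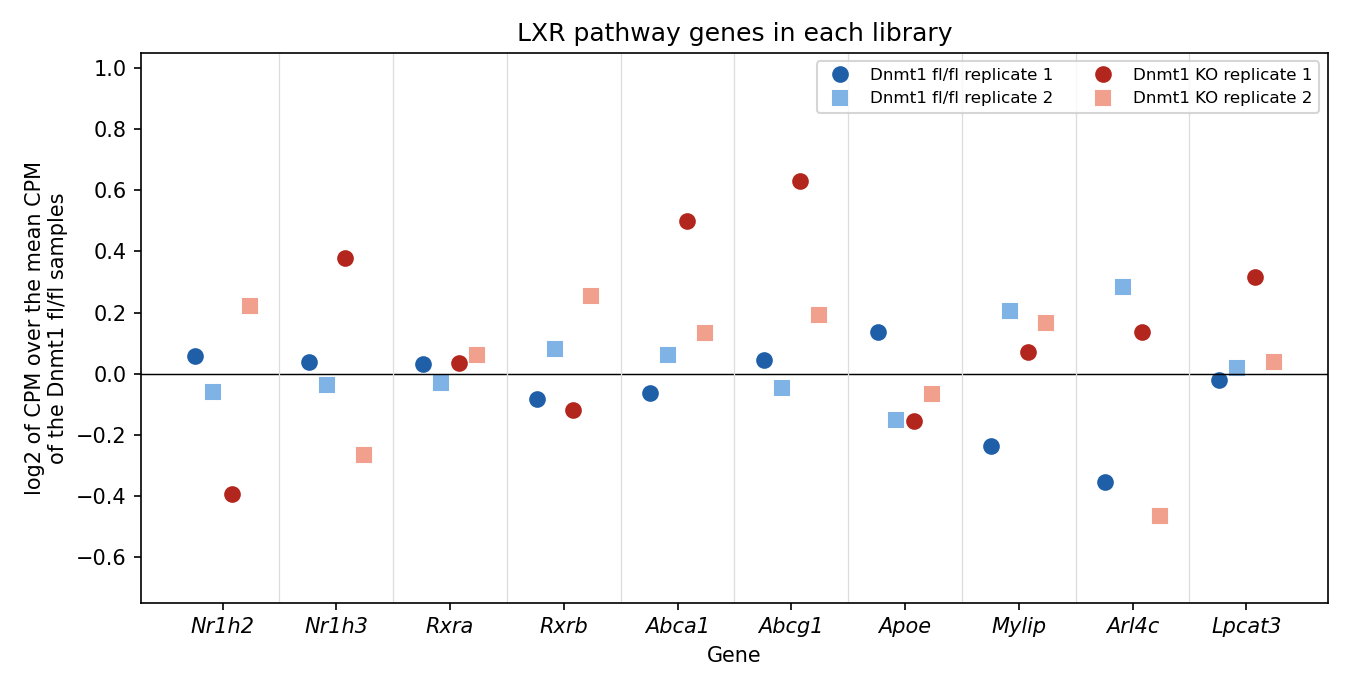
Level of each gene in each of the 4 libraries, as the log2 of its CPM over the mean CPM of the Dnmt1 fl/fl samples (y axis); circles are replicates 1 and squares replicates 2, blue for Dnmt1 fl/fl and red for Dnmt1 KO. Dnmt1 KO replicate 1 is the highest library for Nr1h3, Abca1, Abcg1 and Lpcat3 and the lowest for Nr1h2, Rxrb and Apoe.

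Apoe encodes apolipoprotein E, the lipid acceptor that macrophages secrete, and lies on chromosome 7 from 19696109 to 19699188. It was by far the most abundant of the 10 genes and took 1.12% to 1.53% of all counts of a library. Its levels were 15053 and 12339 CPM in the controls and 12286 and 13090 CPM in Dnmt1 KO, with overlap, a log2 fold change of -0.11 (95% interval -0.82 to 0.60). Dnmt1 KO replicate 1, which had the most Abca1 and Abcg1, had the least Apoe, and without Dnmt1 fl/fl replicate 1 the log2 fold change was 0.04.

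Lpcat3 encodes the enzyme that places polyunsaturated fatty acids into membrane phospholipids, and lies on chromosome 6 from 124663027 to 124704418. It was at 48.5 and 49.8 CPM in the controls and at 61.2 and 50.4 CPM in Dnmt1 KO replicates 1 and 2, a log2 fold change of 0.18 (95% interval -0.35 to 0.72). Both Dnmt1 KO samples were above both controls, replicate 2 by a small margin, and without replicate 1 the log2 fold change was 0.04. In the annotation 10.2% of the exonic bases of Lpcat3 lie in exons of Emg1 on the other strand, and Lpcat3 was the only one of the 10 genes whose deposited counts were not whole numbers. The counting is not stated to use strand, so reads in that overlap cannot be assigned to either gene. Nr1h3 shares 1.35% of its exonic bases with Gm13783, and the other 8 genes share none.

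Mylip encodes the ubiquitin ligase also called IDOL, which targets the LDL receptor for degradation, and lies on chromosome 13 from 45389742 to 45412022. It was the lowest of the 10 genes per length, at 25.6 and 34.8 CPM in the controls and 31.7 and 33.9 CPM in Dnmt1 KO. The Dnmt1 KO samples lay between the controls, and the log2 fold change was 0.12 (95% interval -0.47 to 0.71). Arl4c encodes a small GTPase of vesicle transport that is induced by LXR ligands, and lies on chromosome 1 from 88673125 to 88702221. It had the widest range of the 10, 1.68-fold, at 71.6 and 111.3 CPM in the controls and 100.5 and 66.2 CPM in Dnmt1 KO. Each genotype held 1 high and 1 low sample, and the log2 fold change of -0.13 (95% interval -0.96 to 0.69) turned to 0.23 without Dnmt1 fl/fl replicate 2 and to 0.14 without Dnmt1 KO replicate 2.

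**Figure D3:**
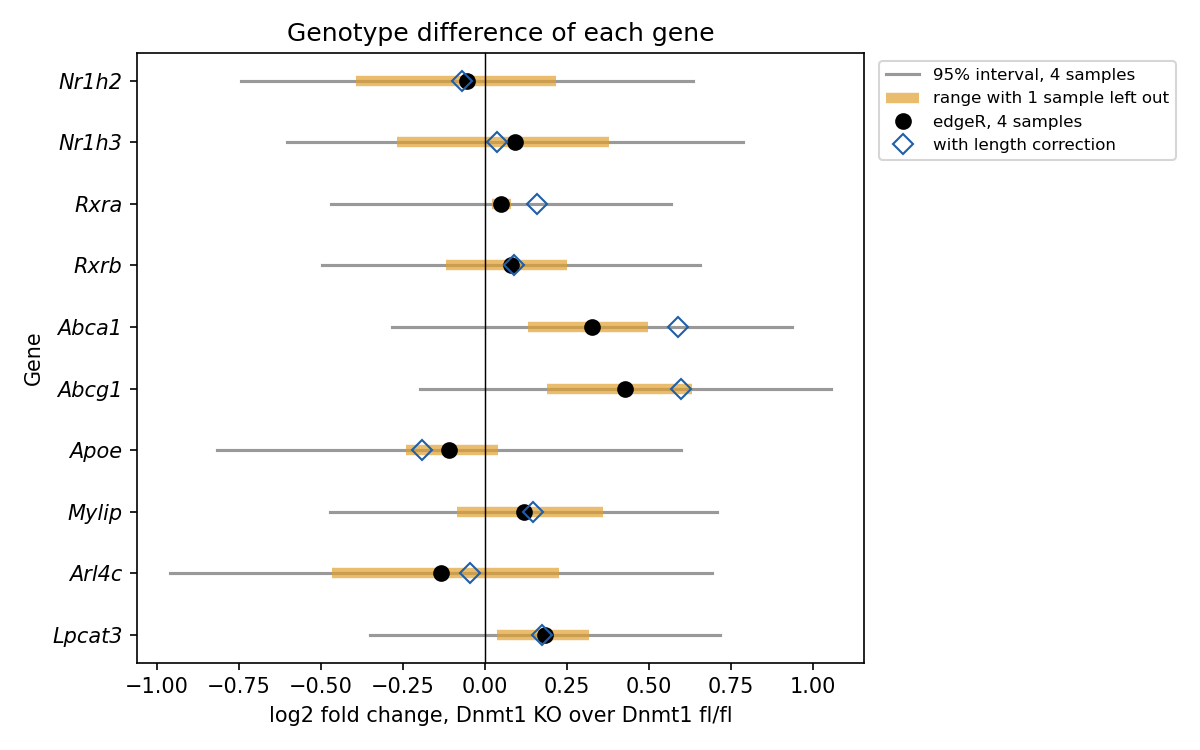
log2 fold change of each gene, Dnmt1 KO over Dnmt1 fl/fl (x axis), with its 95% interval (grey), the range over the 4 fits that each left out 1 sample (orange) and the value with the length correction (open diamond). The intervals of all 10 genes include 0, and Abca1, Abcg1, Rxra and Lpcat3 are positive in all of the fits drawn.

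Across genes, levels were compared per kilobase of the longest transcript. Apoe led with a mean of 9369 CPM per kilobase over the 4 samples. Abcg1 (49.8), Nr1h2 (42.3), Abca1 (38.0) and Nr1h3 (36.3) followed, and each of these overlapped its neighbour in the order. Next came Rxra (26.8), Lpcat3 (22.1), Arl4c (21.9) and Rxrb (20.5), which likewise overlapped one after the other, and Mylip was last at 10.3 CPM per kilobase. The lowest Nr1h3 sample, at 29.2 CPM per kilobase, was above the highest Rxra sample at 27.5. This order depends on the length taken. Per kilobase of the median transcript, a choice made after seeing the data, Apoe, Abcg1 and Nr1h2 led with 16147, 268 and 123 CPM per kilobase, and Nr1h3, at 42.2, stood below Lpcat3 (71.7), Abca1 (70.6), Rxra (66.7) and Rxrb (61.0). Apoe was first, Abcg1 second and Mylip last with either length. For 4 of the 10 genes Dnmt1 KO replicate 1 was the highest library and for 3 the lowest, where over all genes it was the highest in 38.8% and the lowest in 39.6%. The median difference between replicates of these genes was 0.12 in Dnmt1 fl/fl and 0.37 in Dnmt1 KO on the log2 scale, against 0.21 and 0.48 over all genes tested.

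**Figure D4:**
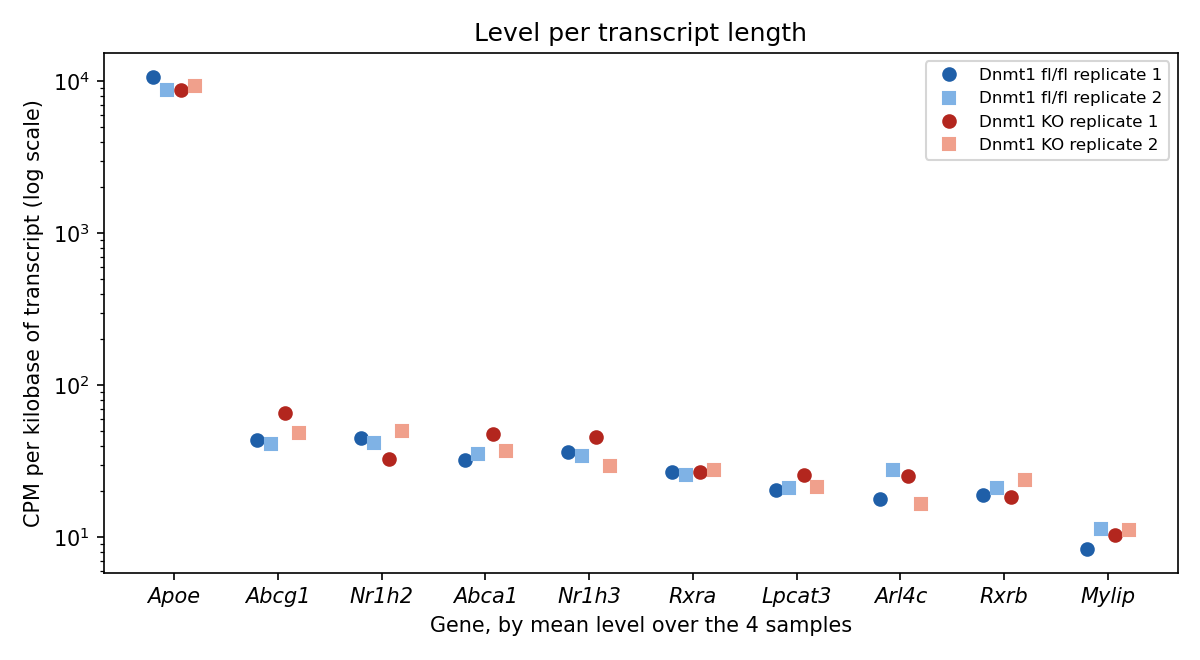
Level of each gene in the 4 libraries in CPM per kilobase of its longest transcript (log scale), with genes ordered by their mean. Apoe lies between 8726 and 10691, and the other 9 genes between 8.36 and 65.8 CPM per kilobase.

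The wider pathway was described with 5 further lists, of which 0 genes had an adjusted or unadjusted p under 0.05. Of 19 other LXR target genes 18 were tested, and 4 were at or beyond 0.2 upward, 5 downward and 9 between, with a median of 0.002 on the log2 scale. Leaving out Dnmt1 KO replicate 2 gave 8 upward, 6 downward and a median of 0.11, in a fit that put 34.2% of all genes upward and 37.8% downward. The length correction gave 5 upward and 2 downward, against 23.6% and 15.8% of all genes. The lowest were Acaca, acetyl-CoA carboxylase of fatty acid synthesis, at -0.32 and Lpl, lipoprotein lipase, at -0.29, which was -0.59 without Dnmt1 KO replicate 1 and -0.05 without Dnmt1 KO replicate 2. The highest were Scd2, a fatty acid desaturase, at 0.38 and Fads2, another desaturase, at 0.45. Fads2 was near the floor, at 0.297 to 1.51 CPM. Srebf1, which encodes the SREBP1 regulator of fatty acid synthesis and is a direct LXR target, was the 1 gene of this list with no overlap, at 53.6 and 53.8 CPM in the controls and 69.9 and 54.4 CPM in Dnmt1 KO, a log2 fold change of 0.21. It was named after its values were seen, and 1 gene above the controls among 18 is no more than the 8.14% of all genes.

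Oxysterol enzymes make and remove LXR ligands. Of 9 genes 5 were tested, with a median log2 fold change of -0.18. A fit with limma-voom gave a median of -0.49 and the blocked fit -0.37, each with 3 of 5 genes at or beyond 0.2 downward in place of 1, against 23.5% and 23.8% of all genes, and it was -0.07 without Dnmt1 fl/fl replicate 2. Cyp27a1, which makes 27-hydroxycholesterol, was at 79.4 and 38.6 CPM in the controls and 14.4 and 88.4 CPM in Dnmt1 KO, a log2 fold change of -0.20, so the Dnmt1 KO samples were the lowest and the highest. Hsd3b7, of bile acid synthesis, had -0.09 and Dhcr7, of cholesterol synthesis, 0.28. The ligand enzyme Ch25h was not listed, and the table holds only genes above 0 in all 4 samples.

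The LXR and RXR coregulators numbered 15, all tested. None was at or beyond 0.2 upward and 2 downward, Nrip1 at -0.22 and Med1 at -0.22, with Hdac3 at 0.08 and Tbl1xr1 at 0.13 (0.02 without Dnmt1 KO replicate 1) as the highest. The median was -0.09, and 2 of 15 values were positive, against 50.9% of all genes. Dnmt1 KO replicate 1 was the lowest library for 12 of the 15 genes. With the length correction the median was 0.005 and 9 of 15 were positive, against 58.9% of all genes, and without Dnmt1 KO replicate 1 the median was 0.11. Without Dnmt1 KO replicate 2 it was -0.58 and without Dnmt1 fl/fl replicate 2 it was -0.24, with 12 of 15 at or beyond 0.2 downward in both cases, against 37.8% and 25.3% of all genes in the same fits and 19.7% with all 4 samples. Without Dnmt1 fl/fl replicate 1 it was 0.12.

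Other partners of RXR gave 9 tested genes of 13, with 1 at or beyond 0.2 upward, 5 downward and a median of -0.26, against 21.8% upward and 19.7% downward over all genes. The median ran from -0.48 without Dnmt1 KO replicate 1 to -0.08 without Dnmt1 fl/fl replicate 2. Nr4a1, an immediate early orphan receptor, was at 31.9 and 48.0 CPM in the controls and 32.7 and 11.2 CPM in Dnmt1 KO, a log2 fold change of -0.87 with overlap. Vdr, the vitamin D receptor, had -0.66 at levels of 0.636 to 1.36 CPM, Thra, a thyroid hormone receptor, 0.19, and Rara, a retinoic acid receptor, 0.28. Leaving out 1 sample moved Nr4a1 between -1.84 and -0.29, Vdr between -0.98 and -0.39, Thra between 0.02 and 0.38 and Rara between 0.01 and 0.62, with the ends set by the Dnmt1 KO replicates for Nr4a1 and Vdr and by the Dnmt1 fl/fl replicates for Thra and Rara. Other genes of cholesterol export and HDL gave 8 tested genes of 11, with none upward and 3 downward at the limit of 0.2 and a median of -0.03. With the length correction 1 of 8 was downward and the median was 0.01, and leaving out Dnmt1 KO replicate 1 gave 1 upward and 1 downward. Lcat, which esterifies cholesterol on HDL, had -1.06 at levels of 0.353 to 0.926 CPM, Abca2, an endolysosomal transporter, -0.24, Scarb1, the HDL receptor SR-B1, 0.02, which turned to -0.0387 with scaling by library totals, and Stard3, a late endosomal sterol transfer protein, 0.09.

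**Figure D5:**
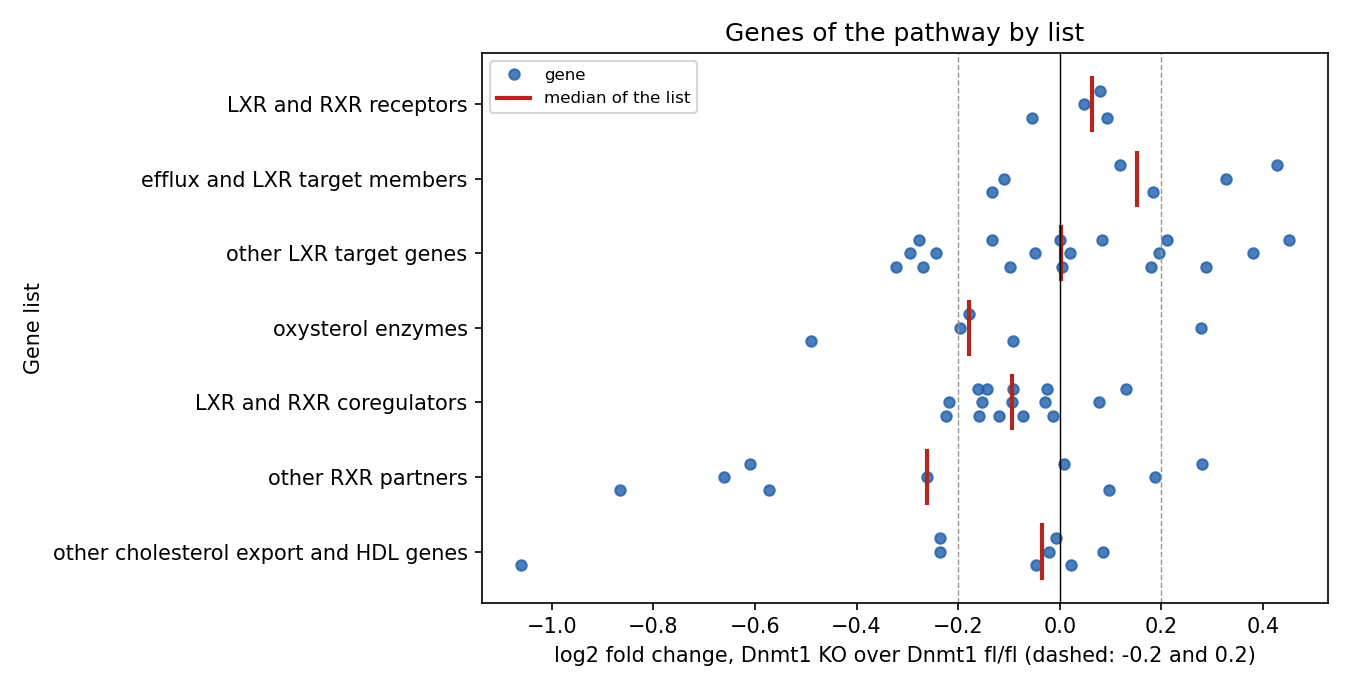
log2 fold change of each tested gene, Dnmt1 KO over Dnmt1 fl/fl (x axis), by list; points are genes, red bars the median of each list and dashed lines -0.2 and 0.2. The medians run from -0.26 for other RXR partners to 0.15 for the efflux and LXR target genes, and no gene drawn passed the edgeR test.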

How the data were processed

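The authors aligned paired-end reads with HISAT2 2.0.5 and counted them per gene with featureCounts 1.5.0-p3, and the submitters' processing notes name mm10; the annotation is not given in the sources used here. The deposited values are estimated counts, not normalized, mostly whole numbers (72.6% to 76.4% of a sample's values). A shorter deposited table, of genes the study selected, was not used.

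The members and lists were chosen with earlier results of these data known. Counts were rounded, filtered with filterByExpr and scaled with TMM (factors 0.910 to 1.04) by edgeR 4.0.16 under R 4.3.3. Its two-sided quasi-likelihood F-test compared the genotypes, without a block, with Benjamini-Hochberg adjustment over 12542 genes, and 95% intervals use the test's degrees of freedom. The common dispersion was 0.0837. The model was tested on simulated counts. Genes were named by a fixed rule: the 10 members, Dnmt1, the 2 highest and 2 lowest of each other list, and the 3 nearest to Abca1. A gene that this rule names is not reported here. Lengths (98.7% of tested genes) and positions are from GENCODE M21 on GRCm38, by symbol, and 8 symbols occurred more than once. Other scalings and filters were tried as alternatives, as were DESeq2 1.42.0, voom of limma 3.58.1, a replicate block, a loess length correction (span 0.5), unrounded values and leaving out each sample.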

Additional observations from a re-analysis of the deposited data

How the results depend on the processing

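Other scalings and filters, limma-voom, unrounded values, the length correction and the replicate block gave 0 genes with an adjusted p under 0.05, and DESeq2 gave 1. In the fit with a replicate block 0 genes were called, with 34 genes at an unadjusted p under 0.05, and log2 fold changes of at least 0.2 were again reached by 2 of the 10 genes. Same-numbered samples deviated in opposite directions (correlation -0.335 across genes, which are not replicates), and the crossed pairing, chosen after seeing the data, gave 3 genes. At a limit of 0.5, 0 of the 10 genes were reached. Scaling by library totals reversed Rxra (-0.0210), Hdac3 (-0.0012) and Scarb1 (-0.0387), and limma-voom reversed Fads2 (-0.0055). Genes called ran from 0 to 1061 over the 4 fits that left out 1 sample, with 1061 without Dnmt1 KO replicate 2, 10 without Dnmt1 fl/fl replicate 2, 2 without Dnmt1 fl/fl replicate 1 and 0 (352 at an unadjusted p under 0.05) without Dnmt1 KO replicate 1. There a genotype is represented by 1 sample, assumed to vary like the others. None of the 10 genes was called in any fit, and their lowest adjusted p was 0.0822 (edgeR, Abcg1 without Dnmt1 KO replicate 2). In those fits 3 to 6 of the 10 genes passed 0.2, and 6 to 8 did not overlap, as fewer samples overlap less. Over all genes, 20.2% to 34.2% passed 0.2 upward and 19.9% to 37.8% downward in the same fits. The count of 6 past 0.2 came without Dnmt1 fl/fl replicate 2, where the shares were 28.9% and 25.3%. The share of all genes without overlap was not taken there, so the 6 to 8 genes have no background. The Nr1h2 share difference ran from -13.3 to 8.11 and the Rxra share difference from -3.29 to 2.52 percentage points. The log2 fold changes that reversed ran from -0.394 to 0.218 for Nr1h2, -0.267 to 0.379 for Nr1h3, -0.118 to 0.251 for Rxrb, -0.242 to 0.0410 for Apoe, -0.0846 to 0.361 for Mylip, -0.468 to 0.226 for Arl4c, -0.844 to 0.0565 for Acaca, -0.245 to 0.813 for Scd2, -1.13 to 1.2 for Fads2, -2.03 to 0.583 for Cyp27a1, -0.257 to 0.0515 for Hsd3b7, -0.0948 to 0.576 for Dhcr7, -0.671 to 0.114 for Nrip1, -0.632 to 0.101 for Med1, -0.0541 to 0.196 for Hdac3, -0.975 to 0.247 for Abca2, -0.110 to 0.141 for Scarb1 and -0.0169 to 0.201 for Stard3. Without Dnmt1 KO replicate 2, Dnmt1 had an adjusted p of 0.0200 (edgeR), Cyp27a1 of 0.0112 and Abca2 of 0.0336. The causes were not tested. Of the genes named, Fads2, Vdr and Lcat lay nearest to the floor of 3 counts, at no more than 1.51 CPM in any sample.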
